A study of Mus musculus with 10 samples.

Results

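The imprinted RNA genes described here are 10 genes of 6 imprinted loci: the long non-coding RNAs Meg3, Rian, Mirg, H19, Kcnq1ot1 and Airn and the protein-coding genes Rtl1, Igf2r, Peg10 and Peg3. They were taken by name from the 34631 protein-coding and long non-coding genes of the RefSeq table for the mouse, and a peak was counted in a gene when its midpoint lay between the first and last base of the gene (its span) on mm10. All 10 names matched. The study mapped N6-methyladenosine (m6A) and RNA bound by YTHDC1, the nuclear protein that reads m6A, in male embryonic stem cells of 129 mice grown without feeders in serum and LIF. Its samples were 2 m6A precipitates and 2 inputs of Mettl3-KO cells, which lack the catalytic subunit of the m6A writer, 2 precipitates and 2 inputs of Mettl3-WT cells, and 1 precipitate and 1 input of Halo-Ythdc1 knockin cells, whose tagged YTHDC1 was pulled down (RNA immunoprecipitation, RIP). How the knockout was made, and whether the samples titled KO1 and KO are separate clones, is not given in the sources used here.

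Imprinted genes are expressed mainly from the chromosome inherited from 1 parent, under the control of a differentially methylated stretch of DNA. Meg3, Rian and Mirg are transcribed in the same direction from the maternal chromosome and carry microRNAs and C/D box snoRNAs, while Rtl1, a gene derived from a retrotransposon, is transcribed from the paternal chromosome in the opposite direction. Kcnq1ot1 and Airn are long, mostly unspliced nuclear RNAs of the paternal chromosome that silence genes around them, and H19 is a maternal RNA that hosts a microRNA. The peak lists do not tell the parental alleles apart and carry no strand, so a peak where spans overlap cannot be given to 1 gene.

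The start of Meg3 was the only place in the 10 genes where a peak of identical position stood in both m6A lists, and its sequence is shown for that reason. The peak covered chr12:109540951-109541150, 45 bp before the annotated start and 155 bp after it. RefSeq's promoter window on GRCm38.p6 (the mm10 coordinates, plus strand, 250 bases before the start and 50 after it) is printed here with the 95 bases that lie under the peak in capitals.
Meg3, chr12:109540746-109541045: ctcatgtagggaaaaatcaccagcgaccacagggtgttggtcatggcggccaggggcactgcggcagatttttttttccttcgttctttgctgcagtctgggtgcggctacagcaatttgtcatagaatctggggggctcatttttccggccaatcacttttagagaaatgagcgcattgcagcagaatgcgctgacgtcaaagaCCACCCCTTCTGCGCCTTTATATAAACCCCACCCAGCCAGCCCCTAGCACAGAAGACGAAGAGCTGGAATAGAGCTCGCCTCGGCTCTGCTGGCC
The window holds TATAAA, beginning 25 bases before the start and overlapping a TTTATA (the same motif on the opposite strand), a motif found on either strand in 13.6% of all 32851 promoter windows. GGAC, the core of the sequence that the m6A writer prefers, is not in this window on either strand. It stands on either strand (GTCC on the opposite strand) in 87.7% of all windows. On the transcribed strand 65.6% hold it, and 18.9% hold it in the 50 transcribed bases. The part of the peak past the window, all of it after the start, was not searched, so the motif may lie there. Of all windows, 1.51% were overlapped by both a knockout and a wild-type m6A peak. The table holds windows for 7 of the 10 genes (a further one for Meg3, at chr12:109545148-109545447), and among these the window printed above was the only one with a peak of any list.

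Downstream in the same region RIP peaks reached into microRNA hairpins, the folded precursors from which mature microRNAs are cut. A RIP peak of exactly 200 bp shared 6 bases with the hairpin of Mir376a, another of that width 8 with that of Mir134 and another 14 with that of Mir410. Their mature sequences from RefSeq (GRCm38.p6, chromosome 12, plus strand) are given with the seed, bases 2 to 8, in capitals, because the seed sets which messenger RNAs a microRNA pairs with.
mmu-miR-376a-5p: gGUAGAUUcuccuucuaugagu
mmu-miR-376a-3p: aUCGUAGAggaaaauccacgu
mmu-miR-134-5p: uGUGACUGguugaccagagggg
mmu-miR-134-3p: cUGUGGGCcaccuagucacc
mmu-miR-410-5p: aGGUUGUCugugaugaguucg
mmu-miR-410-3p: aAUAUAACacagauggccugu
Little of these 6 sequences lay under the peaks, whose shared bases are mostly hairpin bases before them. The Mir376a peak ended at chr12:109723786, where mmu-miR-376a-5p begins. The Mir134 peak ended at chr12:109734146, and mmu-miR-134-5p begins at chr12:109734145. The Mir410 peak ended at chr12:109743728, before mmu-miR-410-5p begins at chr12:109743729. None of the 3p sequences was reached. The 6 sequences have 6 different seeds. Among the 111 mature microRNAs of the region only mmu-miR-494-5p shares a seed with any of them, that of mmu-miR-410-5p.

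The authors' lists hold 6764 knockout m6A peaks, 12368 wild-type m6A peaks and 30992 RIP peaks, each given as a position alone. There is no height, read count or value per sample, so the depth is unknown, no difference can be set against a spread between replicates, and no test was run. Intervals are exact 95% intervals (binomial for shares, Poisson for densities) and cover counting error only. Since GEO's description of 1 knockout precipitate (of 2) points to the wild-type file, which samples went into which list is not settled, and every statement on genotype is a statement on the 2 lists. Of 10 embryonic stem cell markers 9 held a peak in at least 1 list, against 6 of 18 markers of other cell types. These were 3 of 3 neuroectoderm, 2 of 6 fibroblast, 1 of 3 trophoblast, 0 of 3 mesoderm and 0 of 3 endoderm markers, and a peak does not measure a level.

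All 10 genes held a YTHDC1 RIP peak, 4 held a knockout m6A peak and 6 a wild-type m6A peak. All RIP peaks of Kcnq1ot1 and Airn also lay in coding genes (Kcnq1, Igf2r and Mas1), and with each peak given to 1 gene, coding genes first, 8 of the 10 held one. Over the whole table a RIP peak was found in 30.5% of genes (10.3% of long non-coding RNA genes), a knockout m6A peak in 12.2% and a wild-type m6A peak in 20.2%. The 10 genes were picked with results of these lists known, and the table includes genes that these cells may not express, so the shares describe the genes and show no excess. H19 held knockout m6A peaks and no wild-type peak, a state shared by 4.59% of all genes. Rtl1, Rian and Igf2r held no knockout and at least 1 wild-type peak, as did 12.6% of all genes. Meg3, Peg10 and Peg3 had peaks in both m6A lists, and Mirg, Kcnq1ot1 and Airn had none in either.

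**Figure D1:**
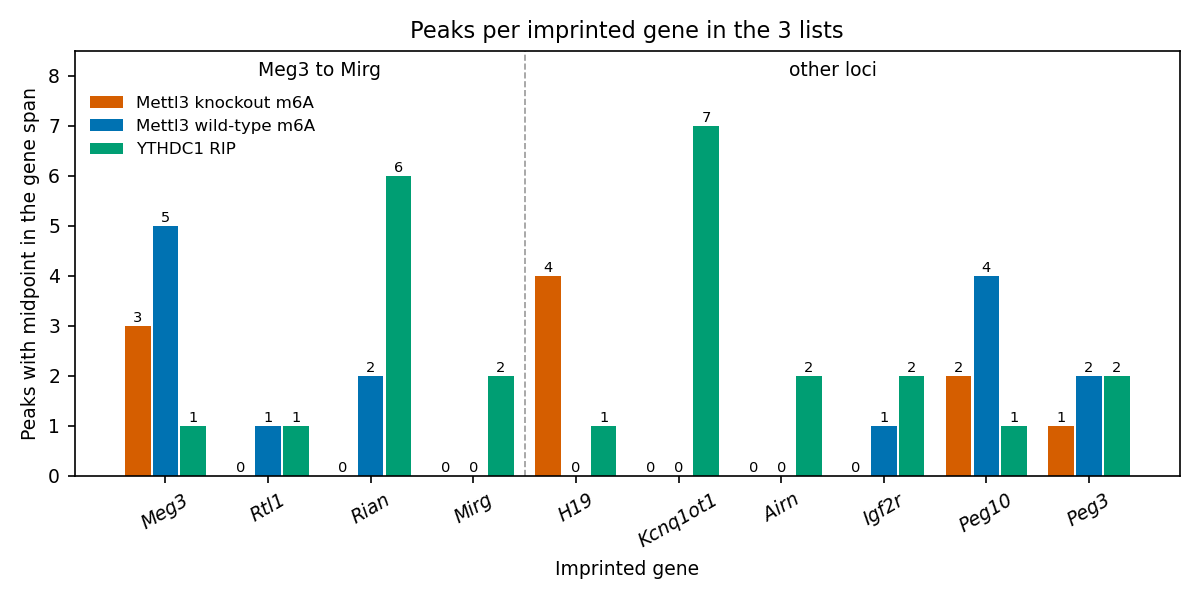
Number of peaks (vertical axis) whose midpoint lies in each gene (horizontal axis), with bars for the Mettl3 knockout m6A, Mettl3 wild-type m6A and YTHDC1 RIP lists, drawn from 0 and with no error since each list gives 1 count. Kcnq1ot1 has 7 RIP peaks and no m6A peak, H19 has 4 knockout and 0 wild-type m6A peaks, and Meg3 has the most wild-type m6A peaks (5).

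Meg3 (chr12:109540996-109571729, plus strand) encodes the maternal RNA at the head of the cluster. In the knockout list it held 3 m6A peaks, all centred within 5.50 kb of its start: the 200 bp peak at the start, a 250 bp peak at chr12:109543601-109543850 and a 400 bp peak at chr12:109546301-109546700. The wild-type list gave 5 peaks spread along the whole span. Of these, the peak at the start had the same edges as its knockout counterpart, and a 250 bp peak at chr12:109546401-109546650 lay wholly inside the 400 bp knockout peak. The other 3 wild-type peaks lay 2800 bp or more from any knockout peak. They were centred 8.70, 17.3 and 30.5 kb from the start, and the last (chr12:109571301-109571600, 300 bp) ended 129 bp short of the end of Meg3. Knockout peaks were thus confined to the 5′ part of Meg3, whereas the wild-type list reached its 3′ end.

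That last peak also lay in Rtl1 (chr12:109564900-109604418), since the spans share 6.83 kb. It was the only m6A peak of Rtl1, which encodes a retrotransposon-derived protein of the placenta. Meg3 held 1 RIP peak (chr12:109555419-109555618), 8718 bp from the nearest knockout and 2532 bp from the nearest wild-type m6A peak. Rtl1 held 1 RIP peak outside Meg3, at chr12:109578034-109578233. Neither RIP peak overlapped m6A.

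Rian (chr12:109603945-109661716, plus strand), whose span holds 11 of the 19 snoRNA genes of the region, was the member in which wild-type m6A and RIP peaks met. It held no knockout m6A peak. Both wild-type peaks lay at the 3′ end, at chr12:109659701-109659900 and chr12:109660651-109661100, centred 55.9 and 56.9 kb into the 57.8 kb gene. Each overlapped a RIP peak, the first by 93 bp (RIP peak chr12:109659594-109659793) and the second by 409 of its 450 bp (RIP peak chr12:109660692-109661276, 585 bp wide). The nearest knockout m6A peak lay 113000 bp away, in Meg3.

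The other 4 RIP peaks of Rian lay apart from m6A, centred 15.6, 42.3, 46.4 and 46.9 kb from its start. The last of these, 227 bp wide, covered all 30 bases annotated for the snoRNA gene AF357359, and its neighbour lay 301 bp before that gene. With 6 RIP peaks Rian was among the 1.97% of all genes with 6 or more.

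**Figure D2:**
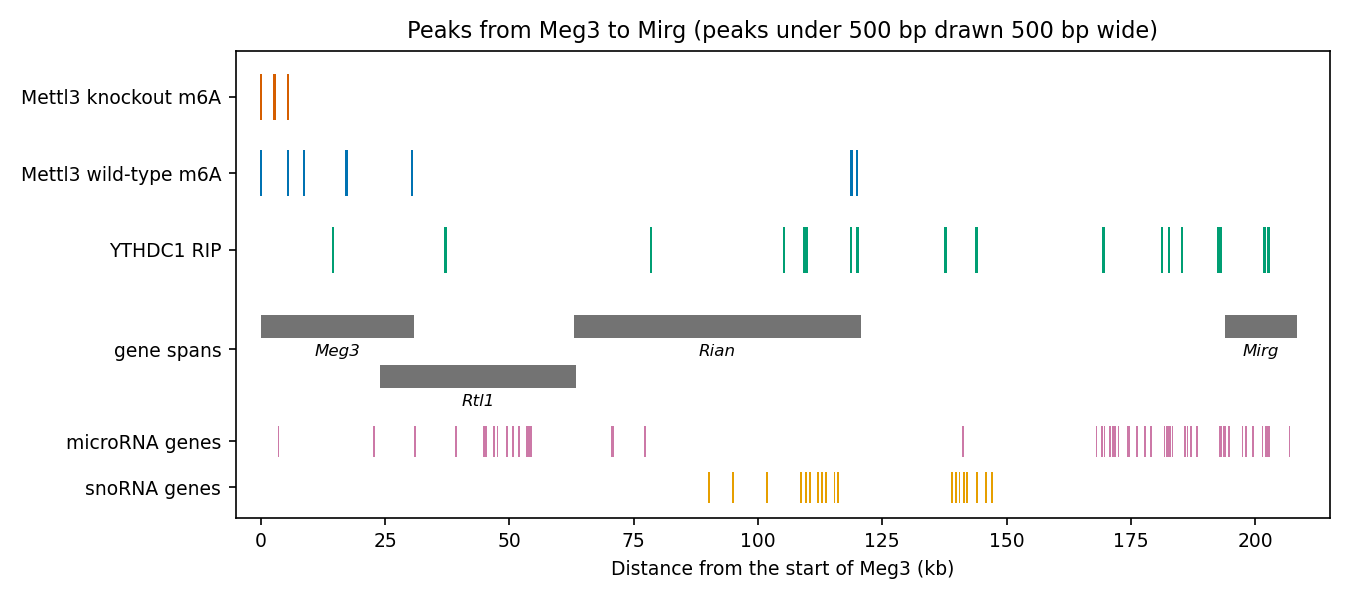
Positions of knockout m6A, wild-type m6A and RIP peaks (upper rows) over the gene spans and the microRNA and snoRNA genes (lower rows), by distance from the start of Meg3 in kb; peaks under 500 bp are drawn 500 bp wide. The 3 knockout peaks sit at the left end, the wild-type peaks over Meg3 and the 3′ end of Rian, and the RIP peaks run along the whole region.

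Between Rian and Mirg lie 73.3 kb that no long gene of the table covers, with 30 microRNA and 8 snoRNA genes. This stretch held 8 RIP peaks and no m6A peak in either list. Mirg (chr12:109734981-109749458, plus strand), named for the microRNAs it contains, held 10 microRNA genes, 2 RIP peaks of 200 bp each (chr12:109742821-109743020 and chr12:109743529-109743728) and no m6A peak. The m6A peak nearest to them was 81720 bp away.

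From Mir379, the first of the dense microRNA cluster, to Mir410 are 34.7 kb with 38 microRNA genes. All 8 RIP peaks in this stretch began before the hairpin nearest to them, in the direction of transcription. Of the 8, 3 ended inside that hairpin, at most 13 bp past its first base: those at Mir376a (chr12:109723587-109723786), Mir134 (chr12:109733947-109734146) and Mir410 (chr12:109743529-109743728), whose mature sequences are printed above. The other 5 ended 54 bp before Mir299a, 137 bp before Mir409, 209 bp before Mir382, 378 bp before Mir376c and 522 bp before Mir381. None of the 8 crossed its nearest hairpin. The hairpins are dense here, and some of these peaks also began shortly after another one. Mir369 ends at chr12:109743496, before the Mir410 peak, and Mir376b at chr12:109723539, before the Mir376a peak. Mir382 ends at chr12:109733846, before the Mir134 peak. The 3 peaks that ended inside a hairpin are each exactly 200 bp wide. The same width is held by 11 of the 18 RIP peaks of the region and by 24.6% of the RIP list. What set this width, and with it the edges, was not tested. Elsewhere in the region, RIP peaks with a microRNA gene nearest lay 8073 bp before Mir770, 1999 bp before Mir493 and 1086 bp after Mir370. The pattern around hairpins was noticed in the list and not tested.

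**Figure D3:**
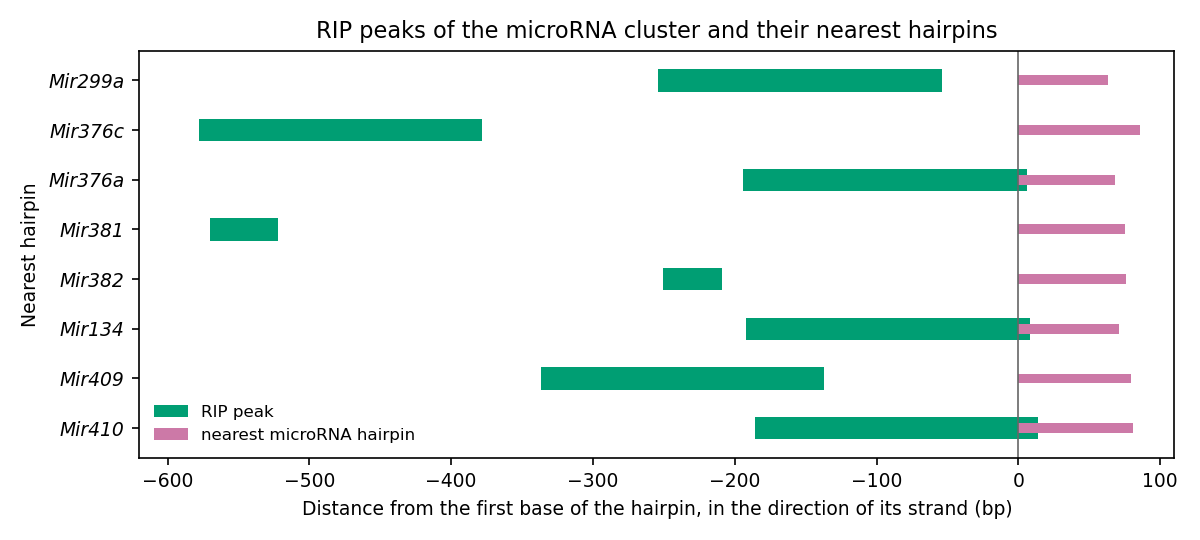
The 8 RIP peaks of the microRNA cluster (wide green bars) and the hairpin nearest to each (narrow bars, named on the vertical axis), by distance in bp from the first base of the hairpin. Every peak begins to the left of its hairpin, and those at Mir376a, Mir134 and Mir410 end 5 to 13 bp past its first base. Hairpins other than the nearest are not drawn.

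Over the whole region RIP peaks overlapped 3 of 60 microRNA genes (5%, 1.04 to 13.9%) and 2 of 19 snoRNA genes (10.5%, 1.30 to 33.1%). Of all annotated microRNA genes 3.5% were overlapped by a RIP peak, and of all snoRNA genes 4.4%. Both intervals hold these shares. No m6A peak of either list overlapped a small RNA gene of the region. The second snoRNA gene, Gm23787, shared 61 bp with the RIP peak at chr12:109684789-109685022.

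H19 (chr7:142575530-142578146), a short RNA of the placenta and embryo, carried the only m6A peaks of the 10 genes that stood in the knockout list without any wild-type counterpart in the gene. Its knockout peaks were 300 bp wide at chr7:142575751-142576050, 150 bp at chr7:142577401-142577550, 250 bp at chr7:142577601-142577850 and 300 bp at chr7:142577901-142578200, the last crossing the upper end of the span by 54 bp. Together they covered 36.1% of the 2.62 kb gene. The nearest wild-type peak lay 491200 bp away. Of all genes, 0.173% had 4 or more knockout peaks and no wild-type peak.

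The RIP list gave H19 a peak of 211 bp (chr7:142577560-142577770). It shared 170 bp with the 250 bp knockout peak and lay 9 bp from the 150 bp one. The hairpin of Mir675, the microRNA that H19 hosts, lies on the minus strand at chr7:142577064-142577147 and was overlapped by no peak. The nearest were the 150 bp knockout peak at 253 bp and the RIP peak at 412 bp.

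Kcnq1ot1 (chr7:143213111-143296547, minus strand) lies inside Kcnq1, a potassium channel gene of 320 kb that is transcribed from the opposite strand. It held 7 RIP peaks, 78 to 330 bp wide, and no m6A peak in either list. All 7 lay in the part of the gene nearest to its start: 4 were centred within 10 kb of it, at 1.14, 2.35, 4.59 and 8.27 kb, and the others at 20.1, 25.0 and 41.4 kb, with none in the remaining stretch of the 83.4 kb span. Kcnq1ot1 had 0.839 RIP peaks per 10 kb, against 0 peaks in the 237 kb of Kcnq1 outside it, a count that allows up to 0.156 per 10 kb.

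Airn (chr17:12741311-12859884, plus strand) and Igf2r (chr17:12682406-12769706, minus strand), which encodes the receptor that clears IGF2, overlap by 28.4 kb. An 80 bp RIP peak at chr17:12764625-12764704 lay in that shared stretch, 23.4 kb from the start of Airn and 5.04 kb from that of Igf2r. Igf2r held another RIP peak (chr17:12714480-12714679) and 1 wild-type m6A peak of 400 bp at its 3′ end (chr17:12683501-12683900), 86.0 of 87.3 kb from its start, 30.6 kb from any RIP peak. The other RIP peak of Airn (chr17:12848407-12848596) also lay in Mas1. Airn had 0.169 RIP peaks per 10 kb, the lowest density of the 10 genes.

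Peg10 (chr6:4747306-4760517), a retrotransposon-derived gene needed for the placenta, carried the widest m6A peak of the 10 genes. In the knockout list it held 2 peaks, of 300 bp (chr6:4756951-4757250) and 200 bp (chr6:4760201-4760400). In the wild-type list it held 4, of 500, 800, 2600 and 300 bp, between chr6:4754301 and chr6:4759500. The 300 bp knockout peak lay wholly inside the 2600 bp wild-type peak (chr6:4756451-4759050), while the 200 bp knockout peak, 117 bp short of the span end, lay 700 bp from any wild-type peak. The share of the span covered by m6A peaks was 3.78% in the knockout list and 31.8% in the wild-type list. Its RIP peak of 340 bp (chr6:4759714-4760053) stood in the gap, 147 bp from the knockout and 213 bp from the wild-type peak next to it.

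Peg3 (chr7:6703892-6730462, minus strand) encodes a large zinc finger protein. Its knockout peak of 150 bp (chr7:6707851-6708000) lay between its wild-type peaks of 850 bp (chr7:6708801-6709650) and 600 bp (chr7:6707101-6707700), 800 bp from the first and 150 bp from the second. The 600 bp peak was also centred in Peg3os, the antisense RNA within Peg3. All 3 were centred 21.2 to 23.0 kb from the start of the 26.6 kb gene. Its RIP peaks lay on either side, at 4.46 kb and 24.8 kb, and touched none of them.

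**Figure D4:**
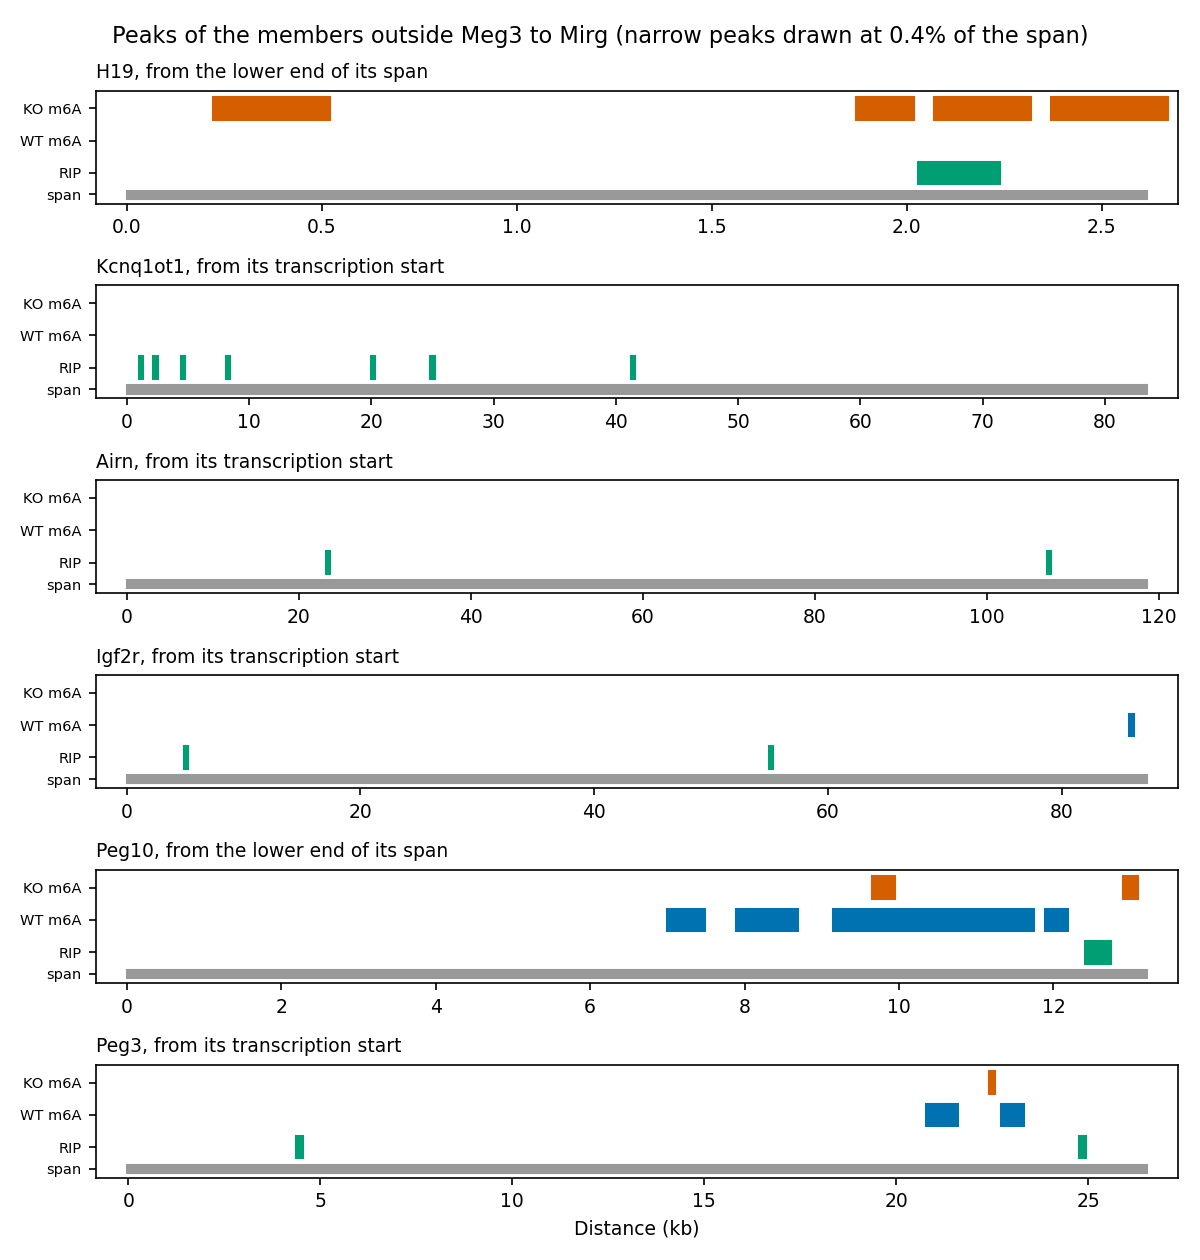
Knockout m6A, wild-type m6A and RIP peaks (rows, top to bottom) of the 6 genes outside Meg3 to Mirg over their spans (grey), by distance in kb from the transcription start, or from the lower end of the span for H19 and Peg10; narrow peaks are drawn at 0.4% of the span. H19 has peaks in the knockout row and none in the wild-type row, Kcnq1ot1 has RIP peaks within 41.4 kb of its start, and the wild-type peaks of Igf2r and Peg3 lie toward the end away from the start.

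Across the 10 genes there were 10 knockout and 14 wild-type m6A peaks, with median widths of 250 bp and 400 bp, equal to the medians of the full lists. Of the knockout peaks 3 overlapped a wild-type peak (6.67 to 65.2%), and of the wild-type peaks 3 overlapped a knockout peak (4.66 to 50.8%). The shares over all peaks in genes were 21.4% of knockout and 11.6% of wild-type peaks, within both intervals. The overlaps were the 2 in Meg3 and the 1 in Peg10 given above.

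m6A and RIP peaks overlapped in 2 of the genes, H19 and Rian. Of 10 knockout peaks 1 overlapped a RIP peak (in H19, 0.253 to 44.5%), and of 14 wild-type peaks 2 did (in Rian, 1.78 to 42.8%). Over all peaks in genes these shares were 21.6% of knockout and 13.3% of wild-type peaks. From the side of the RIP, 3 of 24 peaks (2.66 to 32.4%) overlapped m6A of either list, against 12.2% of all RIP peaks in genes. The distance to the nearest RIP peak had a median of 1844 bp for knockout and 3420 bp for wild-type peaks. None of these shares stood apart from those of all peaks beyond its interval. By their labels the m6A samples are polyA RNA and the RIP samples total RNA, and the part of that difference in the absence of m6A peaks from Mirg, Kcnq1ot1 and Airn was not tested.

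The stretch from the first base of Meg3 to the last of Mirg, 208 kb, held 3 knockout m6A, 7 wild-type m6A and 18 RIP peaks. In the spans of Meg3, Rtl1, Rian and Mirg together the density was 0.740 RIP peaks per 10 kb (0.355 to 1.36), and between Rian and Mirg it was 1.09 (0.471 to 2.15). The other 6 genes had 0.462 per 10 kb (0.252 to 0.774). These intervals overlap, and the difference itself was not tested. With only RIP peaks wider than their list's median of 203 bp, the Meg3 to Mirg genes had 0.222 per 10 kb and the other 6 genes 0.198. RIP peaks covered 1.78% of the Meg3, Rtl1, Rian and Mirg spans and 0.880% of the others. For m6A the cluster genes had 0.222 knockout (0.0458 to 0.648) and 0.518 wild-type peaks (0.208 to 1.07) per 10 kb, and the other 6 genes 0.231 of each (0.0928 to 0.476).

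Both groups, picked with these lists in view, had more RIP peaks per 10 kb than all gene spans (0.190, 0.187 to 0.192). With each peak given to 1 gene, coding genes first, the value for the other 6 genes was 0.198 per 10 kb. That of the Meg3 to Mirg genes stayed at 0.740. The 0.198 still divides by all 303 kb, which include the spans of Kcnq1ot1 and Airn, whose peaks were all passed on. It is therefore not the density of the genes that kept their peaks. Of 37 imprinted genes next to the 10, 8 held a RIP peak, 4 a knockout and 5 a wild-type m6A peak, and 25 held none. Their density was 0.144 RIP peaks per 10 kb (0.0933 to 0.213), and the differences between these groups were not tested. Of their 25 RIP peaks 8 were those in Kcnq1 and Mas1 that also lie in Kcnq1ot1 and Airn. Ppp1r9a near Peg10 held 7 RIP, 0 knockout m6A and 5 wild-type m6A peaks. Nap1l4 held 3 RIP peaks, 4 knockout and 0 wild-type m6A peaks, the same m6A pattern as H19. Cdkn1c and Cd81 held 2 RIP peaks each and no m6A peak, Casd1 held 2 RIP peaks and 1 wild-type m6A peak, and Osbpl5 held 1 RIP peak. Tssc4 held 2 m6A peaks and Dio3 1 in each genotype list, Sgce held 1 knockout m6A peak, and these 3 held no RIP peak.

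Of 45 imprinted genes at other loci 28 held a RIP peak (62.2%), 16 a knockout and 24 a wild-type m6A peak, with 0.277 RIP peaks per 10 kb (0.225 to 0.337). Commd1, Snrpn and Gab1 had 8 RIP peaks each, and Cobl, Adam23 and Jade1 had 7 each. By m6A peaks Gab1 led with 5 knockout and 6 wild-type peaks, ahead of the transcription factor gene Plagl1 with 4 and 6 and no RIP peak, Snrpn with 4 and 3, Commd1 with 2 and 3 and Zdbf2 with 1 and 4. Some of these spans overlap, and a peak in several spans counted for each gene. Zrsr1, inside Commd1, held 3 RIP, 1 knockout and 3 wild-type m6A peaks. Snurf, inside Snrpn, held 4 RIP, 3 knockout and 1 wild-type m6A peaks. Summed over the 45 genes there were 110 RIP peaks, against 98 distinct ones. Snhg14, the host of the snoRNAs of the Snrpn locus, was kept apart because of its 1.18 Mb span. The Meg3 to Mirg region held no RIP peak wider than 585 bp, whereas of the 18 RIP peaks in Snhg14 (0.153 per 10 kb, 0.0906 to 0.242) 5 were wider than 2 kb and the widest was 6643 bp. Snhg14 also held 5 knockout and 3 wild-type m6A peaks, none of them on a RIP peak.

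**Figure D5:**
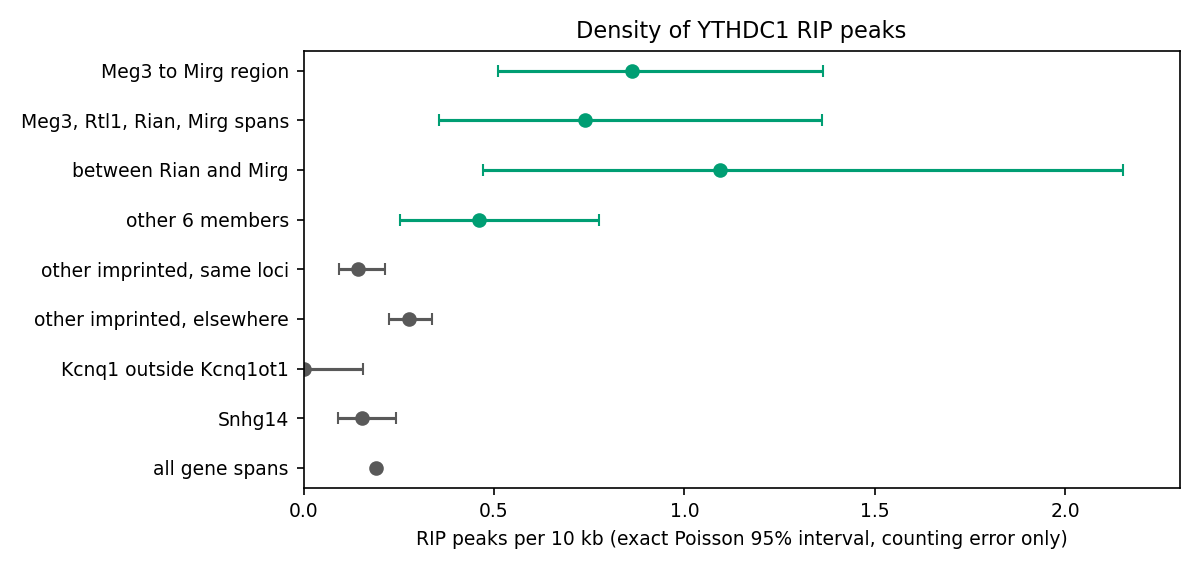
YTHDC1 RIP peaks per 10 kb (points, horizontal axis) with exact Poisson 95% intervals (bars, counting error only) for the Meg3 to Mirg region, its genes, the other 6 genes and, in grey, other sets. The Meg3 to Mirg genes (0.740) and the other 6 genes (0.462) have overlapping intervals, and Kcnq1 outside Kcnq1ot1 has 0 peaks.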

How the data were processed

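The authors deposited 3 peak lists of 3 columns (chromosome, start, end), so the values are positions in bp with no score, read count or strand. STAR 2.7, HISAT2 2.2.0, MACS2 2.1.2 and the mm10 build are named per the submitters' processing notes, without their roles. The peak threshold and any pooling of replicates are not stated in these sources. Groups follow the sample titles. Genes, promoter windows and microRNAs came from RefSeq tables of GRCm38.p6 (49997 models; 12731 long non-coding and 21900 coding genes were used).

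Coordinates are counted from 1. A midpoint in several spans counted for each. Peaks overlapped if they shared 1 bp. Distances run from the annotated start, or from the lower coordinate for H19, Peg10 and Rtl1. Counting intervals were computed with SciPy 1.17.1 in Python 3.11.15, and the interval functions were tested on simulated data. The 10 genes, the imprinted gene lists and the markers were chosen with earlier results of these data known. All 10 genes are named, neighbours where they hold a peak, and other imprinted genes by most RIP or m6A peaks, ties included. Of 39 neighbour names and 47 others, 3 matched no gene (Slc22a18as, Zfp264 and A19) and 1 was a second name of Jade1. With positions alone and no values per sample, no test between conditions was possible.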

Additional observations from a re-analysis of the deposited data

How the results depend on the processing

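No paired analysis was possible because the lists give 1 set of positions per genotype and no values per replicate. Counting any overlap with a span in place of the midpoint moved none of 14 counts, densities and shares by more than 1.5 times or past the interval. Leaving out RIP peaks of 4 kb or more could move none of them, since the widest RIP peak in the 10 genes was 585 bp. Keeping only peaks wider than their list's median removes at least 50% of each list by construction. A fall of the counts was thus built in, and 13 of 14 moved past these limits. A knockout peak was then in 3 genes in place of 4. The 10 genes held 4 knockout, 6 wild-type and 9 RIP peaks, with a wild-type peak in 3 genes and a RIP peak in 4. Of these peaks 1 wild-type peak overlapped a knockout peak and 1 knockout a wild-type peak, and 0 knockout and 1 wild-type peak overlapped RIP. The RIP density fell from 0.740 to 0.222 per 10 kb in the Meg3 to Mirg genes and from 0.462 to 0.198 in the other 6. RIP peaks then covered 0.763% and 0.510% of the span. Giving each peak to 1 gene, coding genes first, passed the peaks of Kcnq1ot1 to Kcnq1 and those of Airn to Igf2r and Mas1. It left a RIP peak in 8 of the 10 genes, 16 RIP peaks in place of 24, and 0.198 RIP peaks per 10 kb and 0.406% covered in the other 6 genes. This density and this share still count the spans of Kcnq1ot1 and Airn in the length. Asking for an overlap of 50% of the shorter peak left 1 wild-type m6A peak on a RIP peak, and counting peaks within 500 bp put 4 knockout peaks beside RIP. The depth behind the peaks is unknown.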
